A study of Mus musculus with 24 samples.

Results

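The genes described here are 10 neuronal immediate early genes, Fos, Fosb, Junb, Egr1, Egr2, Egr3, Arc, Npas4, Nr4a1 and Ier2, of 36163 gene names on the mRNA arrays. The genes were chosen with earlier results of these data known. Their probes were found by gene name among the spots that are not controls, and each gene had 1 probe (that of Fos was spotted 10 times). Hippocampal RNA of C57BL/6 mice labelled as male was hybridised on 15 Agilent arrays, 5 per group, at postnatal day (P) 9. Con pups were untreated and stayed with the dam. MS2 and MS5 pups received morphine by injection, 2 or 5 mg/kg in each dose, 2 doses a day from P5, and were also kept from the dam during the day in warmed cups and exposed to pure nitrogen and then pure oxygen with each dose. No group had the stress without morphine or morphine without the stress, so their effects cannot be told apart. Both hippocampi of a pup were pooled, and pups were killed with an overdose of a barbiturate agent and cervical dislocation. The time from the last injection to death is not given in the sources used here.

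Immediate early genes are transcribed within minutes of synaptic activity, without prior protein synthesis, by factors that already sit on their promoters: CREB at the cyclic AMP response element (CRE), and serum response factor with its Elk partners at the CArG box. Most of their mRNAs are short-lived, so their level in hippocampal neurons follows recent activity. Fos, Fosb and Junb are subunits of the AP-1 transcription factor, and Egr1, Egr2 and Egr3 are zinc finger transcription factors. Nr4a1 is an orphan nuclear receptor, and Npas4 is a transcription factor driven by neuronal calcium entry. Arc is a synaptic effector that promotes removal of AMPA receptors from the membrane, and Ier2 is a small nuclear protein.

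Promoters of 4 members are shown as examples of whole or partial elements through which activity is known to act on this class. RefSeq promoters (GRCm38.p6) matched 6 of the 10 genes: Fos, Fosb, Junb, Egr2, Npas4 and Nr4a1. The 250 bases before each start are printed 5′ to 3′ on the gene's strand, for Fos at chr12:85473640-85473889 (plus), Egr2 at chr10:67537619-67537868 (plus), Npas4 at chr19:4989972-4990221 (minus) and Nr4a1 at chr15:101266596-101266845 (plus). Capitals mark TGACG, the core of the CRE, on either strand, and also the TATA box of Fos and the CArG box of Egr2. The windows of Fosb and Junb, not printed, also hold TGACG.
Fos: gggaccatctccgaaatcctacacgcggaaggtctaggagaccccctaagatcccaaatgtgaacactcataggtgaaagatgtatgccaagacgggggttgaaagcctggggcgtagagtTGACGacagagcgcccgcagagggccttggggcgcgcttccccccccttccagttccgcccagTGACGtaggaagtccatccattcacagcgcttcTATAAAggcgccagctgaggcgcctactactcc
Egr2: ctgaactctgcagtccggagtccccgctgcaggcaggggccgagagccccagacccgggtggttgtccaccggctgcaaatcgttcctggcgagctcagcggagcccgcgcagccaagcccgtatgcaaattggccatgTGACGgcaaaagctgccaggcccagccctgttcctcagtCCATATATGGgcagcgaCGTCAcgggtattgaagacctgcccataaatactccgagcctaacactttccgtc
Npas4: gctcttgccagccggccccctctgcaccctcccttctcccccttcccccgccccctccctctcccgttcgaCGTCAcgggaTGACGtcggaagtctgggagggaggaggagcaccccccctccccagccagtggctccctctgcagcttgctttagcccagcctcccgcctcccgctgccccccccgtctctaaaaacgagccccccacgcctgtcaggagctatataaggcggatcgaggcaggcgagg
Nr4a1: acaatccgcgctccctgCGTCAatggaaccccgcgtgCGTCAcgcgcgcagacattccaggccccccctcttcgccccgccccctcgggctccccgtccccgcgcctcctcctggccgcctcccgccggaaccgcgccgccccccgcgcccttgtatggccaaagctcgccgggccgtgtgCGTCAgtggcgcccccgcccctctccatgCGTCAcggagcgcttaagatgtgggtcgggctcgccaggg

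TGACG, read on both strands, was present before 1 or more starts of all 6 genes, at 8 of their 10 starts, and in 17.8% of 32851 promoters of the same length. Its 2 copies before Fos spanned bases -129 to -125 and -66 to -62, counted from the start, and TATAAA, present in 12.4% of all promoters, lay between bases -33 and -28. Within the 250 bases searched, a CArG box was found only before Egr2 among the 6 genes, at 4 of its 5 listed starts, and in 1.47% of all promoters. Starts of Egr2 that lie close together share the same CArG box, CCATATATGG, and the same TGACG sites. These were counted at each of those starts, so the 8 of 10 starts with TGACG are not 8 separate promoters. Bases farther upstream were not searched, so the absence of a CArG box before Fos and the other genes applies to this window only. The whole CRE, TGACGTCA, which contains TGACG on both strands, was in 1.55% of all promoters and in none of these 10 windows. AP-1 sites (TGACTCA or TGAGTCA, 4.46% of all promoters) and GCGTGGGCG, the Egr site (0.536%), were also in none of these windows.

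The values are the deposited log2 levels, after background adjustment and quantile normalization over all arrays, and a value is comparable only with values of the same probe. On 14 arrays the median spot signal was 100 to 128, and on array MS2 5 (the dimmest, numbers are those of the animals in the labels) it was 51.0. All members were well above background on all 15 arrays, except Egr3, which was not on MS2 4 and MS2 5. The arrays lay on 2 slides, of 8 and 7 arrays, and each slide held all 3 groups. Several arrays went against the labelled tissue or sex. Summed signal of 12 markers of hippocampal principal neurons, such as Neurod6, was 15.00 on MS2 4 and 16.54 to 17.01 on the other 14 arrays (log2). Summed signal of 12 hypothalamic and thalamic markers was 16.04 on MS2 4 and 13.27 to 14.32 on the MS5 arrays. It was 12.95 to 13.20 on the other 9 arrays. In MS5, 10 of these 12 markers had a higher mean than Con and 2 a lower mean. The MS5 difference from Con was 2.53 for Avp, 1.89 for Trh and 1.79 for Oxt, against 0.095 for Tcf7l2. A list of 12 striatal markers, such as Drd1a and Adora2a, was chosen after values of these arrays were seen. Its summed signal was 17.03 on Con 19, 17.15 on MS2 5, 17.55 on MS5 8, 16.39 on MS5 12 and 16.36 on MS5 14, and 14.71 to 15.21 on the other 10 arrays. Xist, transcribed from the inactive X chromosome of females, was at 11.34 on MS5 9 and at 5.89 to 6.08 elsewhere. Choroid plexus markers summed to 16.06 on MS5 9 and 13.48 on MS5 14, and to 17.64 to 18.37 on the other 13 arrays. Results are therefore also given without MS2 4, without MS5 9, or without MS2 4 and the 5 arrays high in striatal markers, which leaves 4 Con, 3 MS2 and 2 MS5 arrays.

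**Figure D1:**
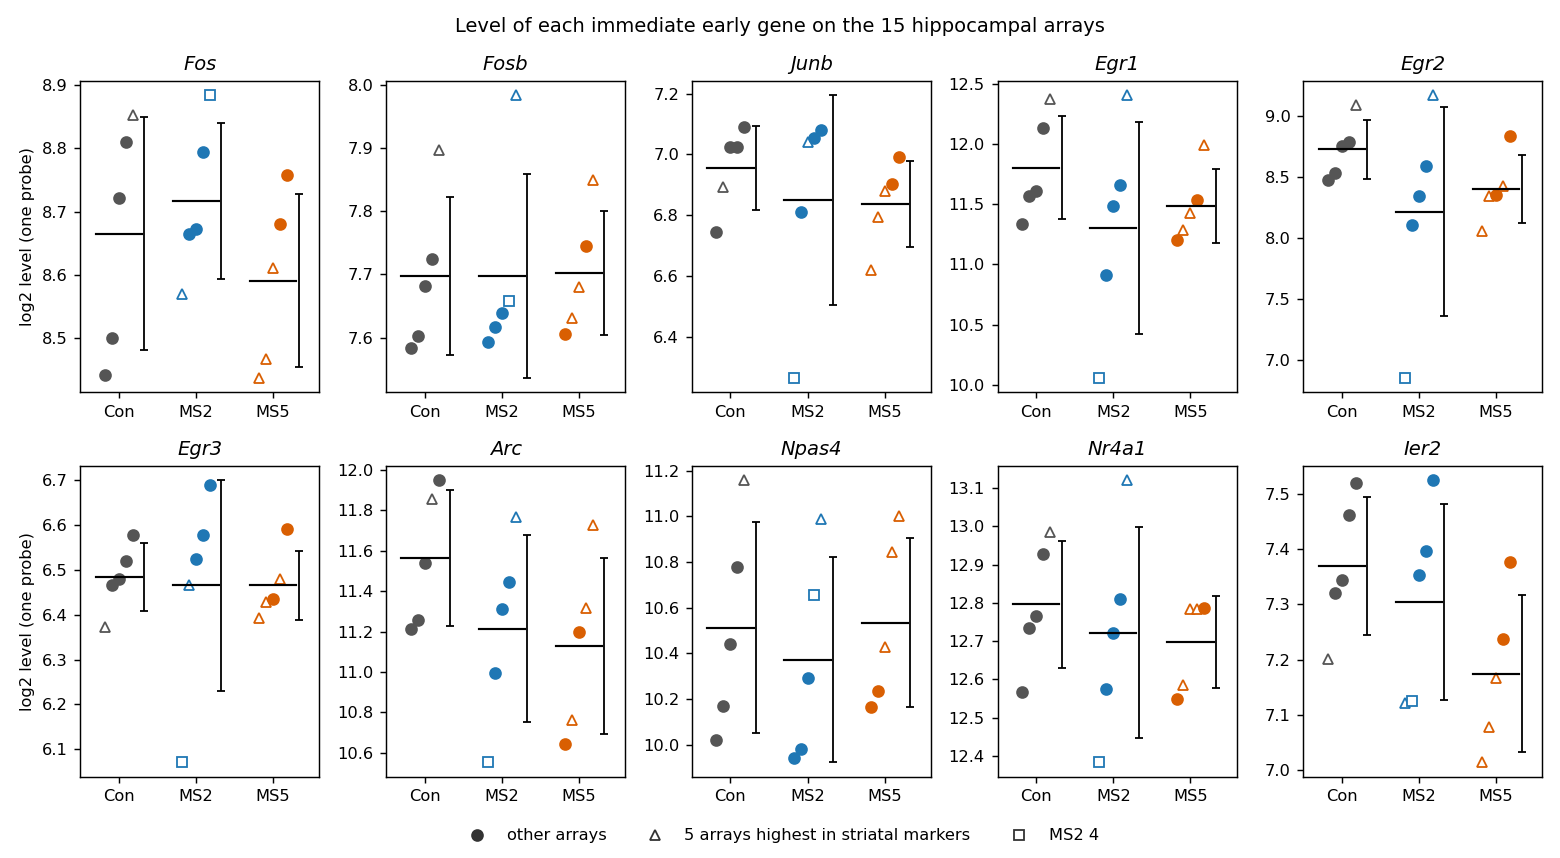
Log2 level of each of the 10 genes on the 15 arrays (one point an array, y axis, a scale of its own in each panel) in Con, MS2 and MS5, with the group mean as a bar and the SD beside it. The groups overlapped for every gene, and MS2 4 was the lowest of all 15 arrays for Junb, Egr1, Egr2, Egr3, Arc and Nr4a1.

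The widest variation between arrays was in Egr1 and Egr2. Egr1, a transcription factor linked to synaptic plasticity and memory, was at 11.61, 11.34, 12.14, 11.57 and 12.37 on Con 15 to Con 19. It was at 11.49, 10.91, 10.06, 12.41 and 11.66 on MS2 1, 3, 4, 5 and 7. On MS5 8, 9, 12, 13 and 14 it was at 11.99, 11.20, 11.29, 11.54 and 11.42. The MS2 group thus held both the lowest and the highest of the 15 values, 5.11-fold apart, and the groups overlapped. The mean was 11.81 ± 0.43 (SD, n = 5) in Con, 11.30 ± 0.88 in MS2 and 11.49 ± 0.31 in MS5. Relative to Con, the Egr1 difference was -0.50 in MS2 (95% interval -1.23 to 0.23, limma adjusted p = 0.97) and -0.32 in MS5 (-1.05 to 0.41, adjusted p = 1). Leaving out MS2 4 gave an Egr1 difference of -0.19 in MS2, and leaving out MS2 5 gave -0.78. MS2 4 was low in hippocampal and high in hypothalamic and thalamic markers, and their part in the Egr1 and Egr2 values was not tested. In RNA of whole tissue, fewer cells of a type and less RNA per cell cannot be told apart. Within the first slide the MS5 difference of Egr1 was -0.01 (3 Con and 2 MS5 arrays) and within the second it was -0.55 (2 and 3 arrays).

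Egr2, a paralog of Egr1 that also acts in myelinating glia of peripheral nerve, was at 8.47, 8.54, 8.76, 8.79 and 9.09 on Con 15 to Con 19. On the MS2 arrays it was at 8.35, 8.11, 6.85, 9.17 and 8.60 in the order of the animals, and on the MS5 arrays at 8.43, 8.84, 8.06, 8.35 and 8.35. MS2 4 was the lowest of the 15 arrays, and the next lowest, MS5 12, was at 8.06. Relative to Con, the Egr2 difference was -0.51 in MS2 (95% interval -1.18 to 0.15) and -0.33 in MS5 (-0.99 to 0.34). The exact two-sided permutation p was 0.246 in MS2 and 0.0714 in MS5. Without MS5 9 the MS5 difference of Egr2 was -0.43, with an exact permutation p of 0.0238 and an unadjusted limma p of 0.212. Without MS2 4 the MS2 difference of Egr2 was -0.17 (-0.59 to 0.25), and the interval of its MS5 difference was -0.72 to 0.07. Without the 6 arrays the MS5 difference of Egr2 was -0.05 (-0.41 to 0.32). Egr3 lay between 6.07 on MS2 4 and 6.69 on MS2 1, and its mean differed from Con by -0.02 in MS2 and by -0.02 in MS5.

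Arc was at 11.54, 11.21, 11.95, 11.26 and 11.86 on Con 15 to Con 19. It was at 11.45, 10.996, 10.55, 11.77 and 11.31 on the MS2 arrays and at 11.72, 10.64, 11.31, 11.20 and 10.76 on the MS5 arrays. No Con array was below 11.21, while 2 MS2 and 3 MS5 arrays were, and the groups overlapped. The Arc difference from Con was -0.35 in MS2 (95% interval -0.86 to 0.16) and -0.43 in MS5 (-0.95 to 0.08), with an exact two-sided permutation p of 0.222 and 0.119. The smallest p that 252 assignments allow is 0.00794. MS5 9, with Xist, and MS5 14 were the lowest MS5 arrays for Arc, and both were low in choroid plexus markers, whose part in the result was not tested. Without MS5 9 the MS5 difference of Arc was -0.31. Without the 6 arrays it was -0.57 (-1.06 to -0.07) with an unadjusted limma p of 0.0287 and an adjusted p of 0.506, beside 8.69% of all probes at an unadjusted p under 0.05 in that fit, and the Arc difference of MS2 was -0.24. The 2 MS5 arrays of that fit were MS5 9, at 10.64, and MS5 13, at 11.20. With MS5 9 left out too, 1 MS5 array was left, assumed to vary like the other groups, and the Arc difference was -0.29 (-0.89 to 0.30).

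Nr4a1 ranged from 12.38 on MS2 4 to 13.12 on MS2 5. Its group means were 12.80 ± 0.17 in Con, 12.72 ± 0.28 in MS2 and 12.70 ± 0.12 in MS5 (SD, n = 5). The Nr4a1 difference from Con was -0.07 in MS2 (95% interval -0.32 to 0.18) and -0.10 in MS5 (-0.35 to 0.15). Npas4 ranged from 9.94 on MS2 3 to 11.16 on Con 19, and its mean was 10.51 ± 0.46 in Con, 10.37 ± 0.45 in MS2 and 10.53 ± 0.37 in MS5. The interval of the Npas4 difference from Con was -0.67 to 0.39 in MS2 and -0.51 to 0.55 in MS5. MS2 4 was the second highest MS2 array for Npas4, at 10.65, while it was the lowest for Egr1. The MS2 difference of Npas4 was -0.39 within the first slide and 0.23 within the second.

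The AP-1 members differed little between groups. On the first of its 10 spots, which the deposited table holds, Fos was at 8.50, 8.44, 8.81, 8.72 and 8.85 on Con 15 to Con 19. It was at 8.66, 8.67, 8.88, 8.57 and 8.79 on the MS2 arrays and at 8.61, 8.76, 8.47, 8.68 and 8.44 on the MS5 arrays. All 15 Fos values lay within 1.36-fold of each other, and the array means of the 10 spots within 1.44-fold. MS2 4, the lowest array for 6 other members, was the highest on the first spot, while by the mean of the 10 spots MS2 7 (8.84) was above MS2 4 (8.77). The Fos difference from Con was 0.05 in MS2 (95% interval -0.14 to 0.24) and -0.07 in MS5 (-0.27 to 0.12). The 10 single Fos spots of an array had an SD of 0.08 to 0.17. The 15 array means of those spots had an SD of 0.17. A mean of 10 spots varies less than a single spot, so the first SD is not the error of an array mean. Fosb lay between 7.58 and 7.98 and Junb between 6.26 on MS2 4 and 7.09. The Fosb difference from Con was 0.0002 in MS2 and 0.005 in MS5, and the Junb difference was -0.11 and -0.12. Without MS2 4 the Junb difference of MS2 was 0.04.

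Ier2 was at 7.46, 7.34, 7.52, 7.32 and 7.20 on Con 15 to Con 19. It was at 7.35, 7.40, 7.13, 7.12 and 7.52 on the MS2 arrays and at 7.08, 7.24, 7.17, 7.38 and 7.01 on the MS5 arrays. Of the MS5 arrays, 3 lay below the lowest Con array, and these 3 were the MS5 arrays high in striatal markers, whose part in the result was not tested. Con 19 and MS2 5, also high in those markers, were the lowest arrays of their groups for Ier2. The Ier2 difference of MS5 was -0.19 (95% interval -0.38 to -0.003), with an unadjusted limma p of 0.0467, an adjusted p of 1 and an exact two-sided permutation p of 0.0635. Without the 6 arrays it was -0.10 (95% interval -0.28 to 0.07). The unadjusted p was above 0.05 when Con 15, Con 16, Con 17, Con 18, MS2 1, MS2 3, MS5 8, MS5 12 or MS5 14 was left out alone, and with offset 0. With 1 array left out at a time the Ier2 difference ran from -0.24 to -0.15. Against dose as a number, Ier2 changed by -0.04 per mg/kg (limma adjusted p = 1). The MS2 difference of Ier2 was -0.06.

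**Figure D2:**
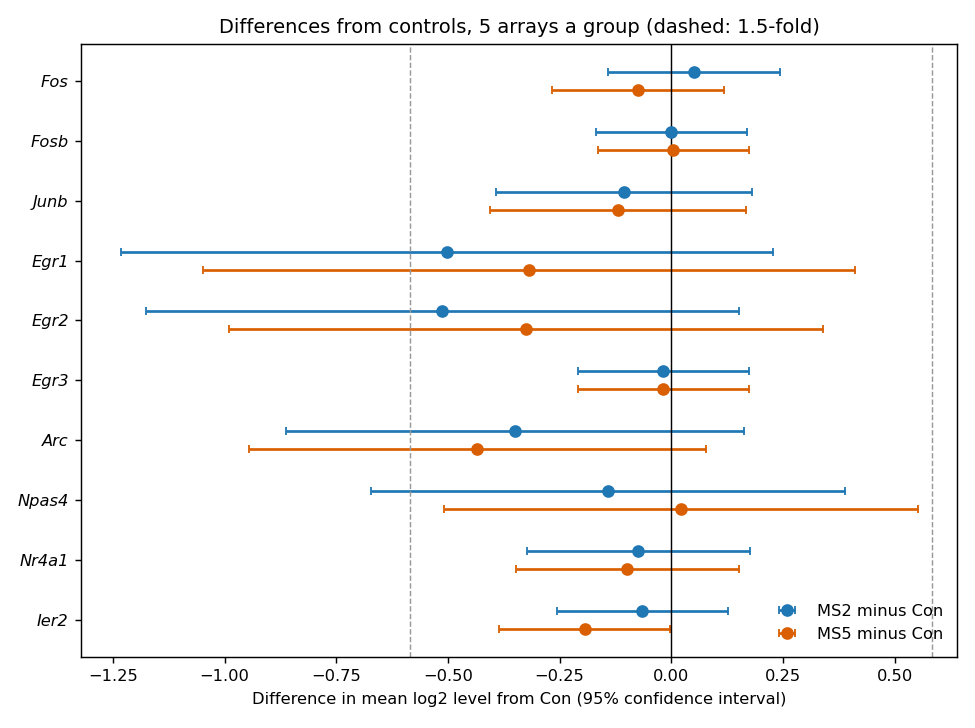
Difference of the MS2 and MS5 group means from Con for each of the 10 genes (log2, x axis) with its 95% confidence interval from limma, 5 arrays a group. Intervals of Egr1, Egr2 and Arc were wide and contained 0, and only that of Ier2 in MS5 did not.

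Taking the members as a list, 0 of 10 were called at an adjusted p under 0.05 (limma, Benjamini-Hochberg) in MS2 versus Con, MS5 versus Con, MS5 versus MS2, MS2 and MS5 together versus Con, or the dose trend. Of all 55681 probes, 0% were called in each. At an unadjusted p under 0.05, Ier2 was the only member called, in MS5 versus Con and in the dose trend. The background of that rule was 4.17% of probes in MS2 versus Con, 3.9% in MS5 versus Con, 3.97% in MS5 versus MS2, 4.13% with both groups together and 3.97% in the dose trend. At the threshold of the study, over 1.5-fold with an unadjusted p under 0.05, 0 of 10 members passed, beside 0.0233%, 0.228%, 0.129% and 0.0539% of probes in the same order of the 4 comparisons. Without MS2 5, Egr1 (unadjusted p = 0.0221) and Egr2 (0.0187) passed that threshold in MS2 versus Con, with an adjusted p above 0.05, beside 0.0682% of all probes in the same fit. No member had groups that did not overlap, beside 0.702% of probes in MS2 versus Con, 0.828% in MS5 versus Con and 0.621% in MS5 versus MS2.

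The median member difference was -0.09 in MS2 versus Con, -0.11 in MS5 versus Con and -0.01 in MS5 versus MS2, while the median over all probes was -0.0017, 0.00036 and 0.0012. Of the 10 members, 8 were lower than Con in MS2 and 8 in MS5, and both comparisons share the Con arrays. Without MS2 4, 5 of 10 were lower in MS2 and the median was -0.01. Without MS5 9, 9 of 10 were lower in MS5 and the median was -0.14. Without the 6 arrays the median was -0.04 in MS2 and -0.06 in MS5. In each of these fits 0 of 10 members were called at an adjusted p under 0.05 or passed the threshold of the study (limma), and 0% of all probes were called. The share of all probes past that threshold was 0.0162%, 0.0216% and 0.0162% in MS2 and 0.28%, 0.189% and 0.659% in MS5 without MS2 4, without MS5 9 and without the 6 arrays. With all arrays and the deposited values (offset 50), the 95% intervals of both differences from Con lay inside a 1.5-fold change for Fos, Fosb, Junb, Egr3, Nr4a1 and Ier2. For Egr1, Egr2, Arc and Npas4 they did not. These bounds apply to those values only, and intervals under other processing are not given here. Over 30 alternatives of processing and arrays left out, the MS2 difference ran from -0.255 to 0.041 for Junb and from -0.269 to 0.086 for Egr3.

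The spread within groups differed between members. Among the 36283 probes well above background on every array, the within-group SD of Egr1, 0.59, was at percentile 98.7, that of Egr2, 0.54, at 98.3, that of Npas4, 0.43, at 96.8 and that of Arc, 0.42, at 96.5. Junb was at percentile 84.9, Nr4a1 at 78.3, Fos at 59.4, Ier2 at 58.9 and Fosb at 47.4. Egr3, which is not one of those probes, was at 59.2 against them. These percentiles apply to the deposited values (offset 50), and percentiles under other processing are not given here. Some of the arrays at the ends stood apart in tissue markers and others did not, and the part of tissue was not tested. Con 19 was the highest Con array for 6 members (Fos, Fosb, Egr1, Egr2, Npas4 and Nr4a1; by the mean of its 10 spots Fos was higher on Con 17), and MS2 5 was the highest MS2 array for 6 (Fosb, Egr1, Egr2, Arc, Npas4 and Nr4a1). MS5 8 was the highest MS5 array for Egr1, Arc and Npas4, and these 3 arrays were the highest in striatal markers. MS2 4 was the lowest MS2 array for 6 members. Con 16, which is not one of the 6 arrays left out, was the lowest Con array for 6 (Fos, Junb, Egr1, Arc, Npas4 and Nr4a1). Of the other arrays high in striatal markers, MS5 14 was the highest MS5 array for 0 members. MS5 12 was the highest for Fosb and the lowest for Junb and Egr2. Without the 6 arrays, Egr1 still ranged over 2.34-fold and Arc over 2.47-fold, while Egr2 ranged over 1.65-fold (4.99-fold with them) and Fosb over 1.12-fold.

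**Figure D3:**
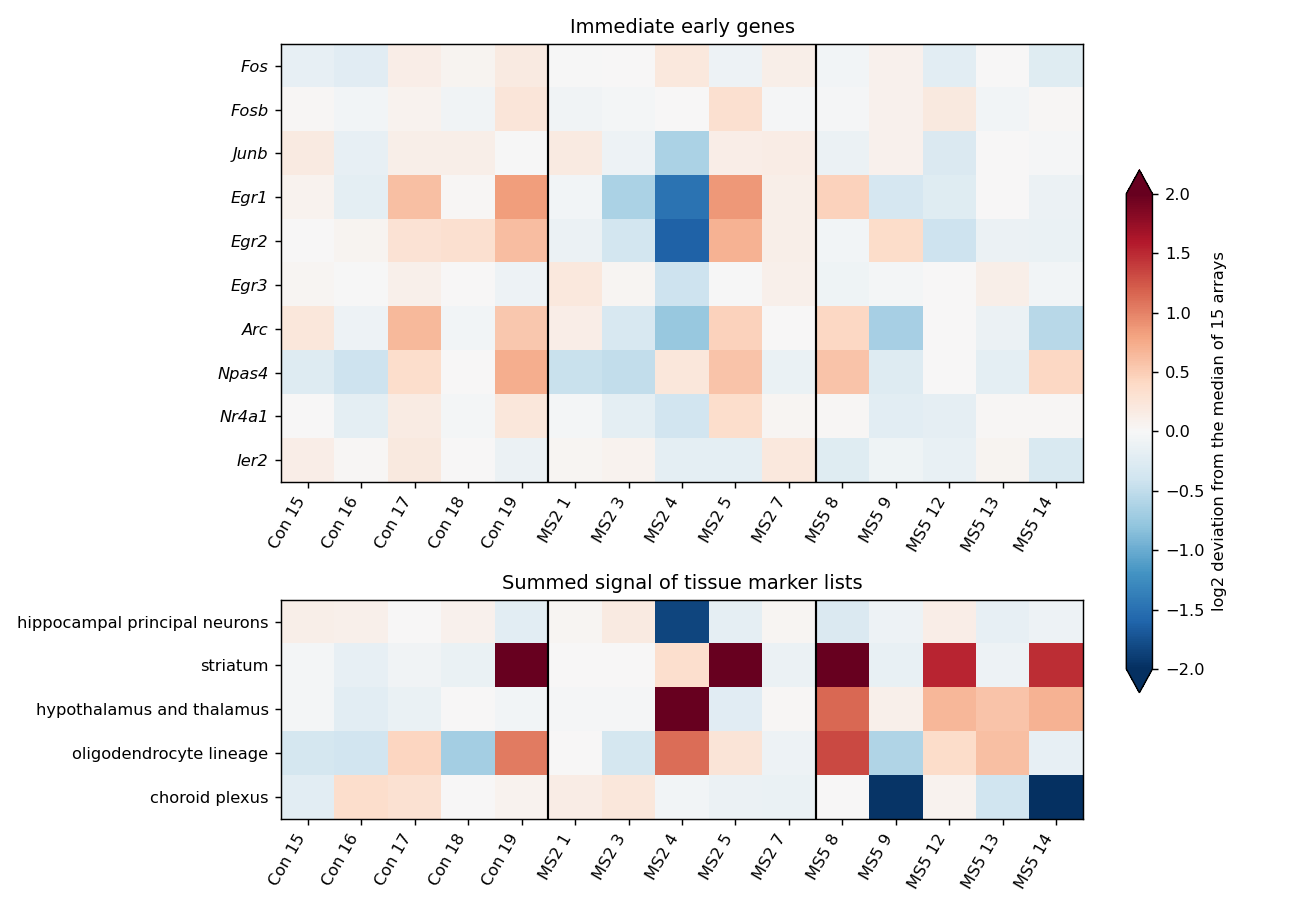
Deviation of each array (columns, grouped as Con, MS2 and MS5) from the median of the 15 arrays, in log2 (colour), for the 10 genes (above) and for the summed signal of 5 tissue marker lists (below). MS2 4 was low in hippocampal markers and in Egr1 and Egr2, and Con 19, MS2 5, MS5 8, MS5 12 and MS5 14 were high in striatal markers.

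Some members rose and fell together from array to array. Egr1 and Nr4a1 had a Pearson r of 0.93 and a Spearman rho of 0.90 over 15 arrays (permutation p = 1e-05, the smallest that the permutations can give, and 2e-05, and 0.00045 and 0.0009 after adjustment over 45 pairs). Egr1 and Arc had an r of 0.86 and a rho of 0.86 (permutation p = 2e-05 and 0.00011, adjusted 0.00045 and 0.00247). Without MS2 4 and MS2 5, the arrays farthest from the median of Egr1, r was 0.90 for Egr1 with Nr4a1 and 0.83 for Egr1 with Arc. Within slides 1 and 2 it was 0.92 and 0.93 for Nr4a1 and 0.90 and 0.86 for Arc, and over the 9 arrays left without the 6 it was 0.91 and 0.85. After subtraction of group means, Nr4a1 ranked 4 and Arc 87 of 25530 genes by r with Egr1. Depth, dissection and normalization are shared by all probes of an array, and their part in these relations was not tested. Egr3 and Ier2 were the only other pair past both adjusted tests (r = 0.61, permutation p = 0.00911, rho = 0.76, permutation p = 0.00167, adjusted 0.041 and 0.025). It had an r of 0.80 without MS2 1 and MS2 4, 0.61 within slide 1 and 0.22 within slide 2. Without the 6 arrays this pair had an r of 0.44 and a rho of 0.53, and Egr3 was not well above background on MS2 4 and MS2 5. Egr1 and Egr2 had an r of 0.87 (permutation p = 0.00014) and a rho of 0.69 (permutation p = 0.00632, adjusted 0.0569), with an r of 0.63 without MS2 4 and MS2 5 and a rho of 0.32 without the 6 arrays.

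Fos was related to none of the 9 other members past the threshold. Its r ran from -0.25 with Egr3 to 0.25 with Ier2 over 15 arrays, and every permutation p adjusted over the 9 relations was 0.995 for r and 0.964 for rho. Fos against Egr1 had an r of -0.08 and a rho of 0.10, and the mean of the 10 Fos spots an r of -0.10 and a rho of 0.11. Without Con 16 and MS5 14, the arrays farthest from the median of Fos, r with Egr1 was -0.18, and without MS2 4 it was 0.32. Over the 9 arrays left without the 6, the rho of Fos was 0.68 with Npas4 and 0.47 with Egr1.

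**Figure D4:**
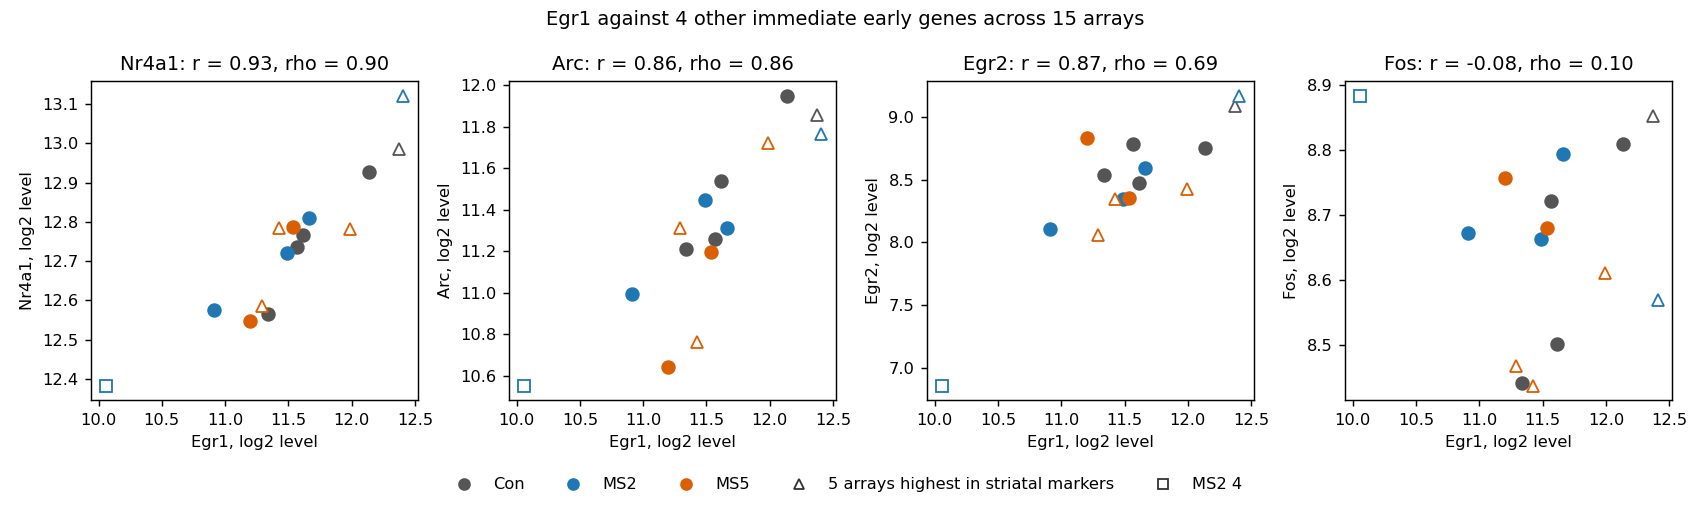
Log2 level of Nr4a1, Arc, Egr2 and Fos (y axes) against that of Egr1 (x axis) on the 15 arrays, coloured by group, with r and rho above each panel. Nr4a1 and Arc followed Egr1 over the whole range (r of 0.93 and 0.86), while Fos, plotted from the first of its 10 spots, did not (r of -0.08).

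By r with the mean of the members after group means were subtracted, the 8 genes most alike of 25521 were Tef (r = 0.97), Pcnxl2 (0.95), ENSMUST00000098328 (0.95), Kcnab1 (0.95), 6330527O06Rik (0.93), 4933433P14Rik (0.93), Prmt8 (0.93) and Prkcz (0.92) over 15 arrays. That mean is weighted towards Egr1, Egr2, Arc and Npas4, which vary most. Tef, a transcription factor of the PAR bZIP family, was between 14.71 on MS2 4 and 15.81 on MS2 5. Without the 6 arrays Tef had an r of 0.98 and ranked 4, while Kcnab1, a potassium channel subunit, had an r of 0.87 and ranked 296.

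Other immediate early transcription factors numbered 22, of which 16 were lower than Con in MS2 and 16 in MS5, with a median difference of -0.08 and -0.04. Without MS2 4, 12 of the 22 were lower in MS2, with a median of -0.01, and without MS5 9, 19 were lower in MS5, with a median of -0.07. With the 6 arrays left out, 13 were lower in MS2 and 12 in MS5. None of the 22 passed the threshold of the study or an adjusted p under 0.05. Egr4, a paralog of the Egr members, was at 8.57 on MS2 4 and at 10.79 to 11.73 on the other 14 arrays, and its MS5 difference from Con was -0.27. The MS5 difference was -0.31 for Btg2, an inhibitor of proliferation (9.14 ± 0.17 against 9.45 ± 0.12 in Con, SD, n = 5), and -0.23 for Csrnp1. At an unadjusted p under 0.05, 3 of the 22 were lower in MS2 (Fosl1, Atf3 and Btg2) and 2 in MS5 (Atf3 and Btg2), beside 2.12% and 2.43% of all probes in that direction. Without MS2 4, 4 of the 22 were lower at that level in MS5 (Klf10 and Csrnp1 were added), beside 3.45% of all probes, and without MS5 9 it was 2, beside 1.92%. In the fit without the 6 arrays, 3 of the 22 were lower and 2 higher at that level in MS5, beside 4.22% and 4.47% of all probes.

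Signalling and effector genes of the same class numbered 25, and 14 were lower than Con in MS2 and 18 in MS5. The counts were 14 and 13 without the 6 arrays. In MS5 the largest differences were those of Rgs2, a regulator of G protein signalling (0.33), Gadd45g, a growth arrest gene (-0.32), and Dusp6, a phosphatase of ERK (-0.26). Gadd45g was the only gene of the list at an unadjusted p under 0.05 in MS5, beside 2.43% of all probes lower at that level. Dusp1, another MAP kinase phosphatase, was the only such gene in MS2 (-0.33), beside 2.12%. With MS2 4 left out, 3 of the 25 were lower at that level in MS5 (Dusp1, Dusp6 and Gadd45g), beside 3.45% of all probes. With MS5 9 left out it was 2 (Dusp1 and Gadd45g), beside 1.92%. In the fit without the 6 arrays, 3 of the 25 were lower and 2 higher in MS5, beside 4.22% and 4.47%. In MS2, 3 were lower in that fit, beside 1.99%.

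Upstream factors and kinases numbered 30, and 19 were lower than Con in MS2 and 15 in MS5. Without MS2 4, 13 of the 30 were lower in MS2 and 17 higher, and without the 6 arrays 12 were lower and 18 higher in MS2 and 10 lower and 20 higher in MS5. In MS5 the largest differences were those of Mef2c (0.24), Elk3 (-0.23) and Crebbp, the coactivator of CREB (0.23). Elk3 was lower in MS5 and Crebbp higher in MS5 and in MS2 at an unadjusted p under 0.05, and neither had an adjusted p under that level. Of all probes, 2.05% were higher at that level in MS2 and 1.47% in MS5, and Crebbp did not pass in MS2 without MS2 4. With the 6 arrays left out, Mef2c was the only gene of the list past the threshold of the study in MS5, beside 0.659% of all probes. Of 15 measured binding partners and repressors of the members, 9 were lower in MS2 and 8 in MS5. Without MS2 4, 6 of the 15 were lower in MS2 and 9 higher, and without the 6 arrays 6 were lower and 9 higher in MS5. The largest MS5 differences were those of Rxrg, a nuclear receptor partner of Nr4a1 (0.49), Arnt (-0.12) and Nab2, a corepressor of Egr proteins (-0.11). Arnt was the only gene of the list at an unadjusted p under 0.05 in MS2 (-0.22), beside 2.12% of all probes lower at that level. It stayed lower at that level without MS2 4 and without MS5 9, beside 1.75% and 2.07%. No gene of the list had an adjusted p under 0.05. Rxrg was at 14.04 on Con 19, 14.04 on MS2 5 and 14.31 on MS5 8, the arrays highest in striatal markers, and at 11.26 to 12.54 on the other 12. Nab2 was at 10.07 on MS2 4 and at 11.70 to 12.06 elsewhere.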

How the data were processed

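The deposited log2 table of the 15 mRNA arrays was used. Its values are log2 signals that the authors background adjusted with normexp (offset 50) and quantile normalized; recomputation from the deposited scanner intensity values, with the first spot of each probe, differed by at most 5e-09 at 55821 probes. After 3671 of 62976 spots, the controls, were dropped, 55681 probes were fitted with limma 3.58.1 (R 4.3.3) in 1 model of 3 groups, and dose was also fitted as a number (0, 2 and 5 mg/kg). Exact permutation tests used all assignments of arrays. Relations used 100000 permutations (Python 3.11.15, SciPy 1.17.1, NumPy 2.4.6). Pathway genes named are those with the 3 largest MS5 differences of each list and any past the threshold of the study. For Fosl1, Atf3, Klf10, Dusp1 and the striatal genes, names were chosen after values were seen. Members and lists were chosen with earlier results of these data known. The number of arrays limits the precision, and p-values measure the spread between arrays of separate animals. The tests treat these animals as independent, although some may be littermates, which the labels do not show. On simulated arrays of 55681 probes, of which 200 were raised by 1 (log2) in MS5, the MS5 versus Con fit called 191 of the 200 and 10 others. On the real arrays that fit called 0 probes, although the median difference of 12 choroid plexus markers was -1.28. The simulated count therefore gives no rate at which such a change of a member would be called. The standard error of the MS5 difference was 0.34 for Egr1 and 0.09 for Fos. The miR arrays were not used here.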

Additional observations from a re-analysis of the deposited data

Results flagged for a closer look

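Of 30 combinations of a member and a group of 5 arrays, 1 had an array whose gap to the others was a large share of the range of the group: for Fosb in MS2, array MS2 5 lay apart by 0.836 of that range, above the limit of 0.71. Chance flags about 1 in 20 such groups. Fosb was at 7.98 on MS2 5 and at 7.59 to 7.66 on the other 4 MS2 arrays. MS2 5 was also the dimmest array and was high in striatal markers, whose part in this value was not tested.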

How the results depend on the processing

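In every comparison fitted, under all alternatives, 0 members passed an adjusted p of 0.05. The count of members past the study's threshold in MS2 versus Con ran from 0 to 2 with each array left out. It was 2 without MS2 5 (Egr1 and Egr2), in a fit that kept MS2 4. The median member difference ran from -0.21 to -0.01 in MS2 and from -0.16 to -0.04 in MS5. Egr1, Egr2 and Arc kept the sign of both differences from Con under all 30 alternatives, and Ier2 that of MS5. Other members changed sign without a call, and the cause was not tested. The widest such change was that of Npas4 in MS2, from -0.391 within slide 1 to 0.233 within slide 2. With offset 0, Fosb was at -0.00074 in MS2. With the processed signal, Egr3 was at 0.0469 and Npas4 at -0.0219 in MS5. With the slide as a block, Fosb was at -0.0240, Egr3 at 0.0142 and Npas4 at -0.0279 in MS5. With array weights, Fosb was at -0.0610, Egr3 at 0.0810 and Ier2 at 0.000095 in MS2, and Fosb at -0.00017 in MS5. After seeing the data, MS2 4 and MS5 9 were both left out: Junb was at 0.0408, Egr3 at 0.0810 and Nr4a1 at 0.0110 in MS2, and Fosb at -0.00603 in MS5. Without the 6 arrays, also chosen after seeing the data, Fosb was at -0.0319, Junb at 0.00989, Egr3 at 0.0856 and Ier2 at 0.0136 in MS2, and Fos at 0.100, Egr3 at 0.00281 and Npas4 at -0.151 in MS5. With MS5 9 left out too, MS2 differences were the same as without the 6 arrays, and Fos was at 0.0617, Fosb at -0.0427, Egr3 at 0.0806, Npas4 at -0.114 and Nr4a1 at 0.0392 in MS5. With 1 array left out at a time, the MS2 difference ran from -0.00434 to 0.0980 for Fos, from -0.0712 to 0.0499 for Fosb, from -0.163 to 0.0408 for Junb, from -0.0736 to 0.0810 for Egr3, from -0.296 to 0.0201 for Npas4 and from -0.174 to 0.0110 for Nr4a1. The MS5 difference then ran from -0.0320 to 0.0544 for Fosb, from -0.0493 to 0.00611 for Egr3 and from -0.102 to 0.183 for Npas4. The study states that treated pups spent the night in a cage with control littermates, and that the experiment was repeated to fill the groups. The labels give neither litter nor round, so neither could be used as a block. No animal number is shared between the groups, so arrays could not be paired by animal. Background limits Egr3, which was not well above it on MS2 4 and MS2 5, and 5 arrays a group leave 1 or both intervals of Egr1, Egr2, Arc and Npas4 wide enough to contain a 1.5-fold change.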
